A study of Mus musculus with 4 samples.

Results

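The nuclear-encoded genes of respiratory complex I were examined in cells sorted from the injured mouse retina. The members were the protein-coding genes of the deposited count table whose name begins with Nduf, 48 of 56493 genes. By the known make-up of the complex, 37 of them encode subunits of complex I itself and 8, named Ndufaf, encode assembly factors. The other 3 were Ndufa4, Ndufa4l2 and Ndufb11b. Members lay on 18 chromosomes, and 2 of them on X. The table held 0 genes of the mitochondrial chromosome, so the subunits encoded there were not analysed here.

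All 4 libraries were labelled wild type (WT) and optic nerve crush, an injury to the axons of retinal ganglion cells. The design text gives an intravitreal injection of AAV2-CrAT, an adeno-associated virus that carries carnitine acetyltransferase, then the crush a month later and sorting of ganglion cells by fluorescence. There were 2 libraries of AAV2-CrAT and 2 of AAV2-MCS, a name the labels leave unexplained, as they do the NCd8 in every title. For the MCS mice the labels give the vector and the crush but no timing. Age, sex, the vector's promoter and the number of animals per library were not found in the labels. Nor do they say whether replicates are separate animals, and p-values then describe only how far these samples vary, which may be technical.

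Complex I is the entry point of electrons from NADH into the respiratory chain. Its peripheral arm, in the mitochondrial matrix, holds a flavin and a chain of iron-sulfur clusters that pass electrons to ubiquinone, and its membrane arm pumps protons. Assembly factors bind intermediates on the way to the finished enzyme and are not part of it. Photoreceptors and ganglion cells both depend on mitochondrial ATP, and in humans mutations of mitochondrially encoded complex I subunits cause Leber hereditary optic neuropathy, in which ganglion cells are lost.

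Values are given throughout in the order of replicates 1 and 2 of a group. Libraries held 24494253 to 27097438 counts. Crat, the mouse gene for carnitine acetyltransferase, was 72.5 and 49.9 CPM with CrAT against 38.3 and 47.7 CPM with MCS. CrAT replicate 2 was thus close to MCS replicate 2, and the log2 fold change of 0.51 (SE 0.33) had an adjusted p of 1 in edgeR. Whether transcripts of the vector are counted with this gene was not tested. Other retinal cells than ganglion cells were well represented, as the summed CPM (counts per fixed library size, scaled by TMM) of 9 rod markers was 44728 and 24018 with CrAT against 43892 and 25960 with MCS. The 8 ganglion cell markers summed to 192.7 and 255.9 CPM with CrAT against 135.5 and 182.4 CPM with MCS, with Pou4f1 at 0 counts in CrAT replicate 1. Much of this was Isl1, which bipolar and amacrine cells also express. The other 7 summed to 65.6 and 176.9 CPM with CrAT against 45.8 and 128.5 CPM with MCS, higher in replicate 2 of both groups. Rbpms alone of the 7 fell in CrAT replicate 2, with 4.19 and 2.75 CPM in CrAT against 3.50 and 8.58 CPM in MCS. Of the 7 Mueller glia markers the sum was 5202 and 3621 CPM in CrAT against 8838 and 9038 CPM in MCS. The 6 amacrine markers summed to 565.6 and 1745 CPM with CrAT against 384.6 and 1066 CPM with MCS, lowest in MCS replicate 1 and higher in replicate 2 of both groups. MCS replicate 1 stood apart in 6 nuclear retained RNAs, with 1477 CPM against 411.8 to 545.2 CPM in the other libraries. It also did in 96 protein-coding genes named Rps or Rpl and a digit, with 8997 CPM against 11799 to 13176 CPM. That is the naming of cytosolic ribosomal protein genes but is not limited to them. The MCS replicate that was low in these 96 genes was also the one low in complex I subunits, as given below. The part of these differences in the results on complex I was not tested. In libraries of this kind fewer cells of a type and less RNA per cell cannot be told apart.

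Of the 48 members 47 passed the filter on low counts. Ndufb11b had 0 counts in all 4 libraries, which allows up to 0.109 to 0.126 CPM per library, counting error only. Per exon length, the subunits of complex I spanned a wide range. On the FPKM scale (reads per exon length and library size), averaged over the 4 libraries, Ndufa1 was highest at 282.9, followed by Ndufc2 at 272.7 and Ndufa2 at 245.4. These genes encode small accessory subunits. The lowest were Ndufb2 at 12.1, Ndufab1 at 15.8 and Ndufs1 at 24.01 FPKM. The summed exon lengths of those 3 genes, 5628, 6883 and 8086 bases, were the longest among the subunits, and FPKM understates a gene whose long exons are rarely used. Ndufa1 ranged from 228.2 to 332.6 FPKM over the libraries and Ndufc2 from 192.7 to 332.9 FPKM, so the top neighbours did not differ beyond their spread.

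Assembly factors lay at the low end of this range. Their mean FPKM ran from 10.4 for Ndufaf2 to 37.96 for Ndufaf8. Ndufa4, once counted with complex I and now assigned to cytochrome c oxidase, was at 224.7 FPKM, and its paralog Ndufa4l2, which hypoxia induces, was at 0.787 FPKM.

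**Figure D1:**
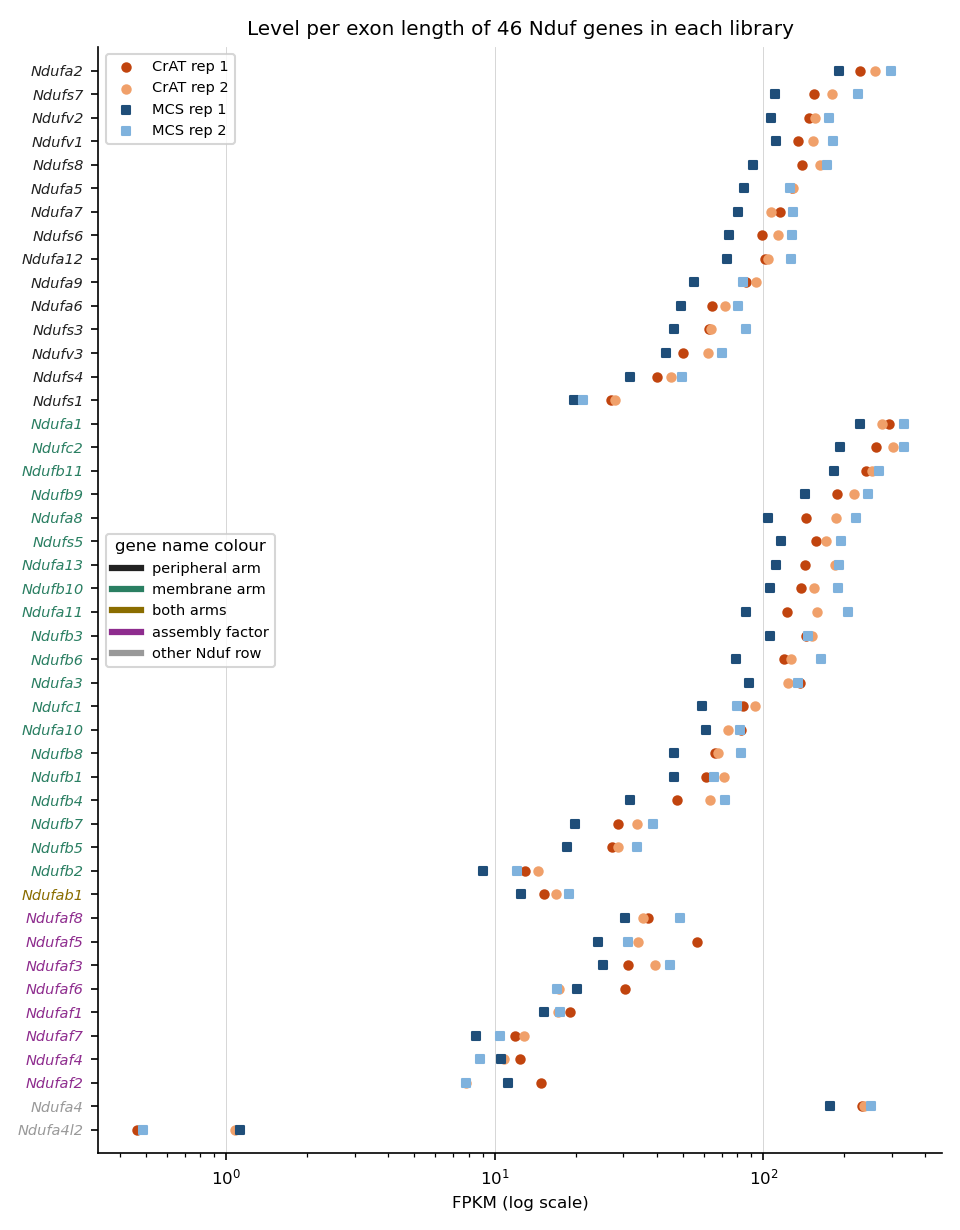
Level of 46 Nduf genes in FPKM (horizontal, log scale), with 1 point for each of the 4 libraries and gene names coloured by class. MCS replicate 1 is the lowest point of every complex I subunit plotted, while the assembly factors follow no single order.

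The comparison of AAV2-CrAT with AAV2-MCS asks how expression in the sorted cells differs when the vector carries CrAT. For complex I no member was called. In edgeR's quasi-likelihood test 0 of 47 members passed an adjusted p of 0.05, against 0% of the 19638 genes tested, and 0 of 47 had an unadjusted p under 0.05, against 4.15% of all genes. DESeq2 called 0 members and 0.291% of all genes that it gave an adjusted p. The log2 fold change, CrAT over MCS, was above 0 for 45 of 47 members, against 50.6% of all genes. With libraries scaled to their totals alone 31 of 39 Nduf genes other than Ndufaf, 7 of 8 assembly factors and 9005 of the 19638 genes were above 0. The median was 0.14 for the 39 and 0.31 for the assembly factors, against 0.0075 for all genes tested. These medians come with no test, and the direction of the 39 rested on 1 library, as given next.

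Subunits of complex I moved together over the libraries, and the largest step was within the MCS group. MCS replicate 1 was the lowest of the 4 libraries for 37 of 37 subunits, against 28.7% of all genes, and MCS replicate 2 the highest for 28 of 37, against 28.2% of all genes. Summed over the 37 subunits, CrAT replicates 1 and 2 held 6400 and 6812 CPM, MCS replicates 1 and 2 held 4490 and 7390 CPM. Both CrAT sums therefore lay between the MCS sums. The median subunit was 0.71 higher in MCS replicate 2 than in MCS replicate 1 on the log2 scale, with a range from 0.11 for Ndufs1 to 1.25 for Ndufa11. Between the CrAT replicates the median step was 0.12, with 29 of 37 higher in replicate 2.

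**Figure D2:**
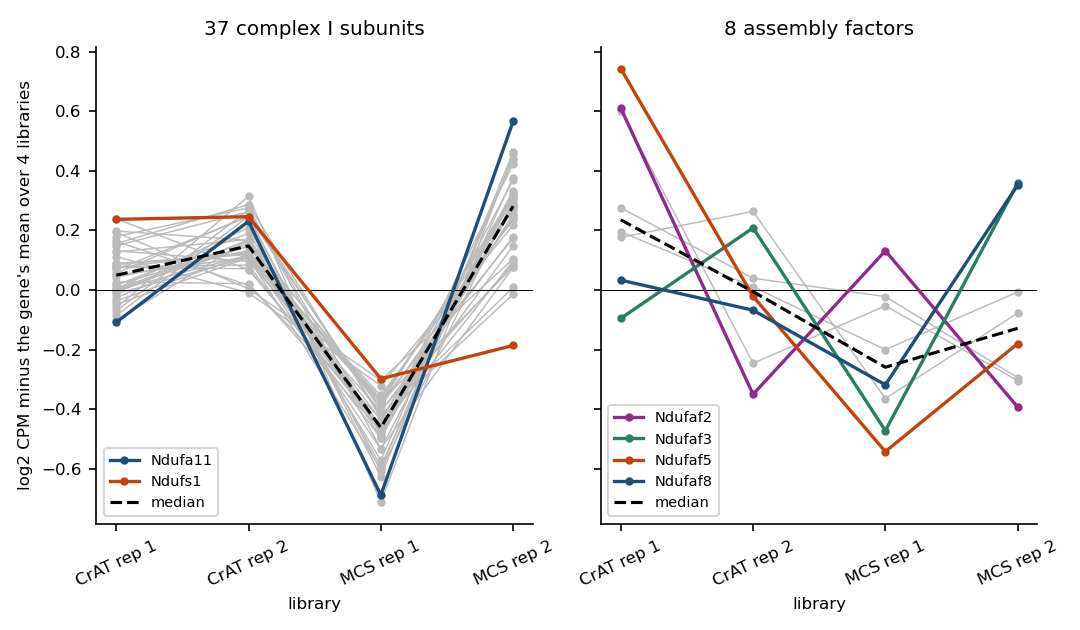
Log2 CPM of each gene minus its mean over the 4 libraries (vertical) in each library (horizontal), with lines joining the values of a gene and a dashed median. In the left panel the 37 subunits share a low in MCS replicate 1 and Ndufs1 alone stays below its mean in MCS replicate 2 by a clear margin, while in the right panel the 8 assembly factors scatter.

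Leaving out a library moved the subunits. Without MCS replicate 1 the median of the 39 genes was -0.17, with 10 higher and 29 lower in CrAT. Without MCS replicate 2 it was 0.56, with 38 higher, and 3 of 47 members (Ndufa9, Ndufb4 and Ndufs8) had an unadjusted p under 0.05, against 6.55% of all genes in that fit, a share near that of the members. Leaving out CrAT replicate 1 gave 0.19, and CrAT replicate 2, 0.10. None of the members was called in any of these fits. Where a group has 1 library left, that library is assumed to vary as the other group does.

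**Figure D3:**
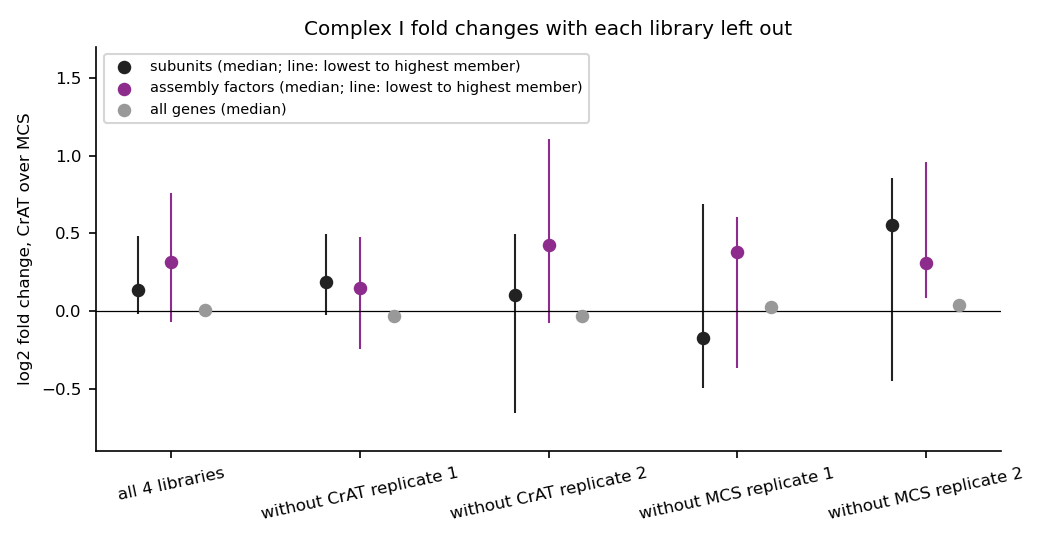
Log2 fold change of CrAT over MCS (vertical) with all 4 libraries and with each left out (horizontal), as the median of 39 Nduf genes without Ndufaf, of 8 assembly factors and of all genes tested, with lines from the lowest to the highest member. The subunit median falls below 0 without MCS replicate 1, at -0.17, while that of the assembly factors is 0.38 there. The lowest end of the subunit line without CrAT replicate 2 or MCS replicate 2, and its highest end without MCS replicate 1, are Ndufa4l2, a gene of few counts.

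The catalytic core of the peripheral arm followed this shape. Ndufv1, which binds NADH and the flavin, was 364.6 and 406.5 CPM with CrAT against 289.8 and 470.3 CPM with MCS. Ndufv2, which carries an iron-sulfur cluster beside it, was 328.6 and 336.9 against 224.8 and 369.4 CPM. For both, the CrAT libraries fell between the MCS libraries.

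Ndufs7 and Ndufs8 were alike in order. Ndufs7, whose iron-sulfur cluster lies next to the ubiquinone site, was 273.5 and 310.4 CPM with CrAT against 187.4 and 377.7 CPM with MCS, a step of 1.01 on the log2 scale between the MCS replicates. Ndufs8, with iron-sulfur clusters on the path to ubiquinone, was 184.8 and 211.3 against 116.7 and 219.1 CPM. In both genes MCS replicate 1 was lowest and MCS replicate 2 highest.

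Ndufs3, a core subunit without a cofactor, was 140.4 and 139.8 CPM with CrAT against 99.3 and 184.6 CPM with MCS. Its log2 fold change was -0.02 (SE 0.36), the only value below 0 among the subunits. The groups overlapped fully.

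Ndufs1 (ENSMUSG00000025968, chromosome 1), the large subunit that holds several of the iron-sulfur clusters, was the exception in the core. It was 226.5 and 227.9 CPM with CrAT against 156.3 and 168.9 CPM with MCS, or 227.2 ± 0.986 against 162.6 ± 8.93 CPM (SD, n = 2 each). The CrAT pair lay above the MCS pair, whose libraries were close to each other. The log2 fold change was 0.48 (SE 0.27), the largest among subunits, with an unadjusted p of 0.124 and an adjusted p of 1 in edgeR. It stayed between 0.43 and 0.54 when each library was left out in turn. As a share of the summed subunits, Ndufs1 took 3.54% and 3.34% in CrAT and 3.48% in MCS replicate 1, but 2.29% in MCS replicate 2. Relative to the other subunits it was thus low in MCS replicate 2 and did not part the groups. Of its exon bases 9.58% also belong to Ino80dos, a noncoding gene on the other strand, and the library kit does not mark the strand. Ino80dos had 803 and 825 counts in CrAT against 634 and 646 in MCS, so its CrAT pair was also above its MCS pair. The part of shared reads in the values of Ndufs1 was not tested.

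In all, 6 of 37 subunits showed no overlap, with the CrAT libraries on top, a share near the 15.0% of all genes. With 4 of 8 assembly factors the count was 10 of 47 members. The count with both CrAT libraries below was 0 of 47, against 16.6% of all genes. MCS replicate 1 was the lowest library in 43 of 47 members, which by itself keeps the CrAT pair from lying below. Besides Ndufs1 the 6 subunits were Ndufa5, Ndufa9, Ndufb2, Ndufb3 and Ndufc1. Ndufa9, an accessory subunit near the ubiquinone site, was 186.5 and 199.4 CPM with CrAT against 113.9 and 173.6 CPM with MCS, a log2 fold change of 0.42 (SE 0.32). Ndufc1, of the membrane arm, was 129.4 and 140 against 87.2 and 117.4 CPM, with 0.40 (SE 0.29). Ndufb2, also of the membrane arm, was 74.8 and 81.9 against 49.9 and 66.5 CPM, with 0.43 (SE 0.29). In all 3 the replicates of MCS differed by more than the nearest CrAT and MCS libraries did, and the adjusted p was 1 in edgeR. Their values rested on the MCS libraries. Without MCS replicate 1 the log2 fold change was 0.15 for Ndufa9, 0.20 for Ndufc1 and 0.24 for Ndufb2, and without MCS replicate 2 it was 0.76, 0.63 and 0.66.

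**Figure D4:**
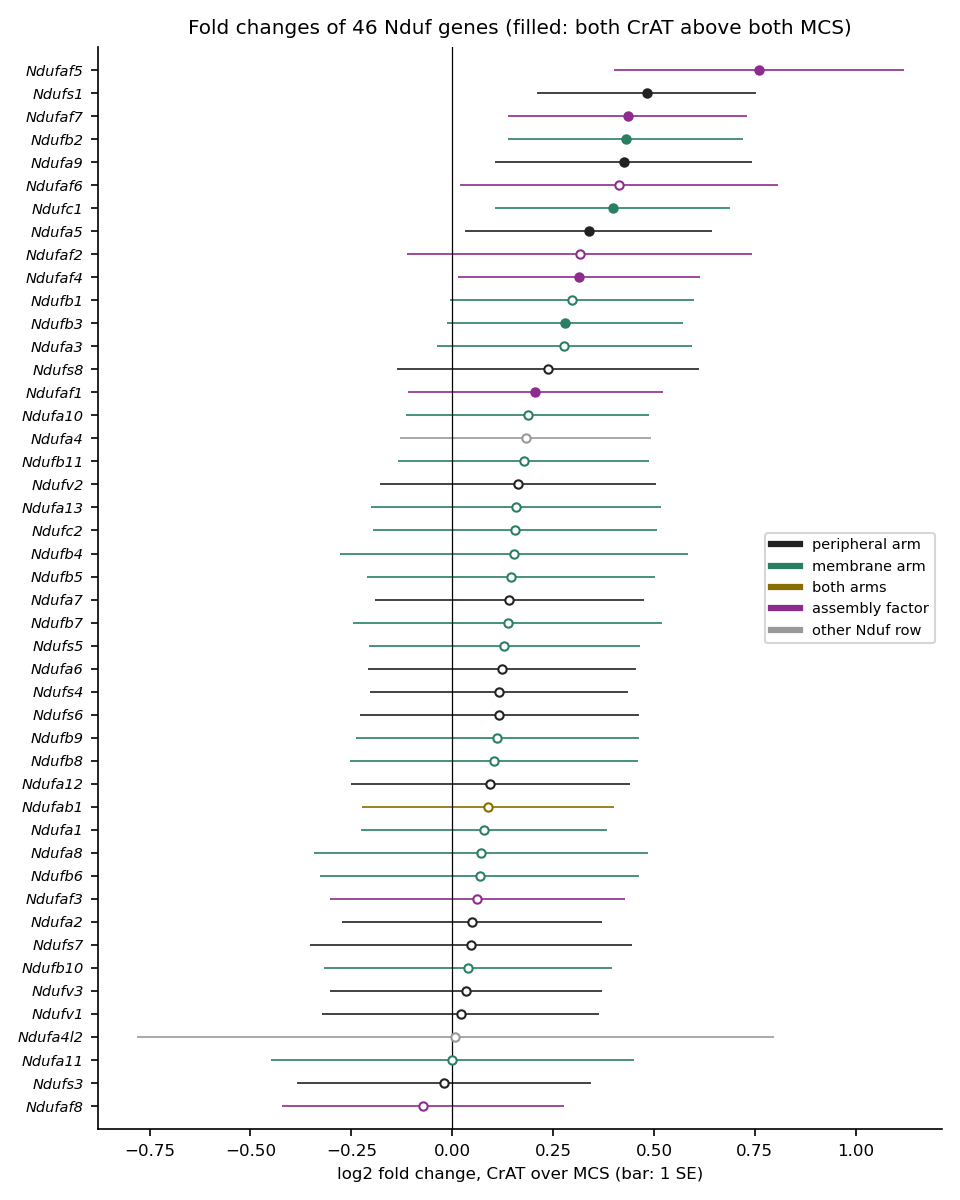
Log2 fold change of CrAT over MCS (horizontal, bars 1 SE, edgeR) for 46 Nduf genes, coloured by class, with filled points where both CrAT libraries exceed both MCS libraries. Values run from -0.07 for Ndufaf8 to 0.76 for Ndufaf5, and 10 points are filled.

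Some accessory subunits were far apart within MCS. Ndufa11, a membrane arm subunit singled out after its values were seen, was 92.4 and 220.4 CPM with MCS against 138.1 and 174.7 CPM with CrAT. Ndufb4, of the membrane arm, was 60.2 and 135.1 CPM with MCS against 94.6 and 122.6 CPM with CrAT. Its value is uncertain, since the table lists the near copies Ndufb4c and Ndufb4b with 273 to 623 and 288 to 665 counts, and the rule for shared reads is not given in the sources used here. Ndufab1, the mitochondrial acyl carrier protein that sits in both arms, was 107.9 and 117.1 CPM with CrAT against 84.5 and 127.1 CPM with MCS. Ndufs4, which in mice is needed for a stable peripheral arm, was 111.8 and 123.8 against 85.2 and 132.1 CPM.

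The arms had similar values. The 16 subunits of the peripheral arm had a median log2 fold change of 0.12 and the 20 of the membrane arm 0.15, and the sum of the peripheral arm was 107% to 111% of the membrane arm in every library. The 7 core subunits had a median of 0.16 and the 30 accessory ones 0.13. When each subunit was taken as a share of the summed subunits in its library, the median range over the 4 libraries was 0.25 on the log2 scale, against 0.72 for CPM. The proportions of subunits therefore varied less than their level. Most constant was Ndufs5, at 2.17% to 2.22% of the sum. Ndufs1, Ndufa11 and Ndufb4 were the least constant.

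The level of complexes III, IV and ATP synthase moved with the subunits. Summed subunits of complex I were set against the sum of 35 gene entries of complexes III, IV and ATP synthase. Among the 35 entries, Atp5o is listed under both of its gene identifiers. The subunits were 48.2% and 48.1% of that sum in CrAT, and 48.9% and 50.1% in MCS. On the log2 scale the CrAT minus MCS difference of summed complex I was 0.20 by CPM, smaller than the pooled SD of 0.36 between replicates, and -0.04 relative to these complexes. In the 35 entries MCS replicate 1 was also lowest in 35 of 35, and their median log2 fold change was 0.19. The 4 genes of complex II, not among them, summed to 1609 and 1625 CPM with CrAT against 1164 and 1376 CPM with MCS. There both CrAT sums lay above the MCS sums.

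Assembly factors had no common order over the libraries. MCS replicate 1 was lowest for 5 of 8, against 28.7% of all genes, and MCS replicate 2 highest for 2 of 8, against 28.2%. Their sum was 401.6 and 322.3 CPM with CrAT against 262.9 and 313.7 CPM with MCS. Relative to the summed subunits this was 6.27% and 4.73% in CrAT and 5.85% and 4.25% in MCS, higher in replicate 1 of each group, as were the summed rod markers given above. Whether cell make-up had a part in this was not tested.

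Ndufaf5 (ENSMUSG00000027384, chromosome 2), which in humans hydroxylates an arginine of the core subunit NDUFS7, had the smallest p of all members. It was 104.3 and 61.4 CPM with CrAT against 42.8 and 55 CPM with MCS. Both CrAT libraries were above both MCS libraries, with most of the gap from CrAT replicate 1. The log2 fold change was 0.76 (SE 0.36), with an unadjusted p of 0.0769 and an adjusted p of 1 in edgeR. Leaving out CrAT replicate 1 gave 0.33, and CrAT replicate 2, 1.11.

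Ndufaf7, a methyltransferase of the mitochondrial matrix, was 42.7 and 45.4 CPM with CrAT against 29.4 and 35.8 CPM with MCS, a log2 fold change of 0.43 (SE 0.30). The groups did not overlap. Ndufaf4, an early factor that works with Ndufaf3, was 49.9 and 42.4 CPM with CrAT against 40.6 and 33.6 CPM with MCS, with 0.31 (SE 0.30). Its log2 fold change was 0.19 without CrAT replicate 1 or without MCS replicate 2. Ndufaf3 was 58.5 and 72.2 against 45 and 80.1 CPM, with 0.06 (SE 0.36). Ndufaf3 thus had the order of the subunits and Ndufaf4 did not.

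Ndufaf1, part of the complex that assembles the membrane arm with Ecsit and Acad9, was 29.6 and 26.1 CPM with CrAT against 22.5 and 25.8 CPM with MCS, with 0.21 (SE 0.32), and 0.11 without CrAT replicate 1 and 0.12 without MCS replicate 1. Ndufaf6, an early assembly factor, was 38.8 and 21.6 against 24.7 and 20.7 CPM, with 0.41 (SE 0.39), and the value was -0.07 without CrAT replicate 1. Ndufaf8, which in humans stabilises NDUFAF5, was 32 and 29.8 against 25.1 and 39.9 CPM, with -0.07 (SE 0.35). Its order was unlike that of Ndufaf5.

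Ndufaf2, which binds a late intermediate and is a paralog of Ndufa12, was 45.7 and 23.5 CPM with CrAT against 32.8 and 22.8 CPM with MCS. It was higher in replicate 1 of both groups, by 0.96 in CrAT and 0.52 in MCS on the log2 scale. The log2 fold change was 0.32 (SE 0.43), and -0.24 without CrAT replicate 1. Of Ndufaf2, 65.6% of the exon bases also belong to B230220B15Rik, a noncoding gene on the other strand. That gene had 1005 and 382 counts in CrAT and 643 and 362 in MCS, where Ndufaf2 had 1092 and 623 in CrAT and 816 and 630 in MCS. Both were higher in replicate 1 of each group. Reads of these 2 genes that lie within the shared bases cannot be told apart without strand. Over all members 20 share exon bases with another gene of the table, and 9 of them more than 10% of their exons.

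Further genes that assemble complex I, from a list of 13 of which 12 were tested, were also uncalled. Of these 12, 10 had a log2 fold change above 0, with a median of 0.23, and 0 passed in edgeR, 0 with an unadjusted p under 0.05. In 4, Acad9, Aifm1, Foxred1 and Tmem126b, the CrAT pair lay above the MCS pair, against 15.0% of all genes. Acad9, the partner of Ndufaf1, was 60.7 and 62.8 CPM with CrAT against 46.8 and 38.4 CPM with MCS, with 0.54 (SE 0.29). Tmem70, which acts in complex I and ATP synthase assembly, was 42.7 and 43.6 against 44.3 and 60.3 CPM, with both CrAT libraries below.

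Ndufa4 was 331.5 and 329.5 CPM with CrAT against 240.8 and 341.8 CPM with MCS, the order of the subunits. Ndufa4l2 had 13 and 32 counts in CrAT and 30 and 15 in MCS, too few to place the groups apart.

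Because subunits of the complex moved together over the libraries, their promoters were searched for short motifs of factors known for nuclear-encoded mitochondrial genes. RefSeq windows of build GRCm38.p6, from 250 bases before to 50 after the start, were found by symbol for 41 of 48 members. On both strands, GCATGCG of NRF-1 was in 3 of 33 subunits with a window, or 9.09%, and in 2 of 7 assembly factors, against 4.01% of 27025 genes. CCGGAAG of ETS factors, GABP among them, was in 4 subunits, or 12.1%, and 2 assembly factors, against 9.93%. ATGGCGG of YY1 was in 8 subunits, or 24.2%, and 2 assembly factors, against 4.69%. For 6 of these 10 genes it lay after the start, and its letters begin with ATG, the start codon. AAGGTCA of the estrogen-related receptors was in 3 subunits, or 9.09%, and 0 assembly factors, against 5.38%. A match is a string of letters and no evidence of binding.

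The 250 bases before the start are shown for the subunit that differed most between the MCS libraries, for the subunit with a fold change below 0 and for an assembly factor without the subunits' order, 5′ to 3′ on the strand of the gene. Capitals mark the motifs, GCATGCG on both strands, where overlapping matches give a run of 8 capitals, in Ndufa11 and Ndufaf4, and CCGGAAG in Ndufs3.
Ndufa11 (chr17:56717512-56717761, plus strand): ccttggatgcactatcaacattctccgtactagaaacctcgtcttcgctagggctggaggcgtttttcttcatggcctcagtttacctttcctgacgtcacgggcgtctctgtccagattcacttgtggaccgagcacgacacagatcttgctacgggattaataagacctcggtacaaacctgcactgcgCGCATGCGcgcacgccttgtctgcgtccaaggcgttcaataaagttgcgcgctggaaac
Ndufs3 (chr2:90904722-90904971, minus strand): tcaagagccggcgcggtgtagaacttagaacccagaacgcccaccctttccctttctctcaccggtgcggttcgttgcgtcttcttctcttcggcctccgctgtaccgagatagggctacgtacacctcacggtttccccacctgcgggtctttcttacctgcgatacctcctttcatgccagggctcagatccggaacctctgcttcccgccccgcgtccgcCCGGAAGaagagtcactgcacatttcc
Ndufaf4 (chr4:24897833-24898082, plus strand): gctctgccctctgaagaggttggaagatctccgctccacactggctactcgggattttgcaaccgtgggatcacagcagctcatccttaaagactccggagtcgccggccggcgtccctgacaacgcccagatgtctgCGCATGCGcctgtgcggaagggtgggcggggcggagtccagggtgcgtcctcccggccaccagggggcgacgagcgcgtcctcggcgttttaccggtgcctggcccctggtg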

How the data were processed

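RNA-seq of 4 libraries was analysed. Per the labels' protocols, cDNA came from a SMART-seq v4 kit, which does not mark strand. STAR (version 2.7.2b), GRCm38.p6 and mm10 are listed in the submitters' processing notes. The name of the deposited count table holds featureCount. No further account of the counter, and no annotation, was given in the sources used here. Deposited by the authors were estimated counts per gene, rounded to whole numbers (FPKM times exon length and library total gave the values behind them within 0.5, and 43.5% to 44.9% were not whole within 0.02), and FPKM values. The design had assumed plain counts, and the same test serves both. The tables name no build, and 3 of 48 members had the start and end of GRCm38, so no coordinates from them are printed. Chromosomes, exon lengths and shared exon bases were taken from the tables' own entries. The 4 columns of other samples, 2 in each table, were not used.

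Genes passing filterByExpr (19638) were scaled by TMM (factors 0.970 to 1.020) and tested with edgeR 4.0.16's quasi-likelihood F test in R 4.3.3, two-sided, with group as the only term and 2 residual degrees of freedom, and Benjamini-Hochberg adjustment over all genes tested at 0.05. SE is the log2 fold change over the root of F. The common biological coefficient of variation was 0.404. Alternatives were DESeq2 1.42.0, its size factors, library totals, no filter, the replicate number as a block, and each library left out. Replicates differed by more than sampling noise (chi-square per degree of freedom 77.5 for CrAT, 131 for MCS). The main edgeR fit, and none of the alternatives, was also run on simulated counts with known changes. Those changes were larger than the members' in that fit, so the run does not bear on the members' calls. An exact permutation test of 2 against 2 cannot go below 0.333 and was not used. Members and gene lists, and their assignment to arms and core from textbook knowledge, were chosen with earlier results of these data known. 1 member, counted in all sums, is not reported by name here. Members named with values were the other core subunits, the assembly factors, Ndufa4, Ndufa4l2, Ndufab1, Ndufb4, up to 6 with the smallest p on each side of 0, the ends of the FPKM range, and the member farthest from its class median (Ndufaf5). Ndufa5 and Ndufb3 were added as the remaining members without overlap, and Ndufa11, Ndufs4 and Ndufs5 were chosen after their values were seen.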

Additional observations from a re-analysis of the deposited data

How the results depend on the processing

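No complex I member was called under any alternative run. DESeq2 called 55 genes of all tested and the fit with no filter 2, against 0 in edgeR. With no filter 1410 genes and 1 member (Ndufaf5) had an unadjusted p under 0.05, against 815 and 0. No label ties equal replicate numbers to a shared animal or day. Their deviations from the group means correlated at 0.389, which with 2 pairs is no proof of pairing. With the replicate block 1922 genes did, no member was called, and Ndufs3 turned to 0.048. Leaving out each library gave 597 to 1391 genes and 0 to 3 members with an unadjusted p under 0.05, 16 to 46 members above 0, and medians of -0.17 to 0.56 for the 39 Nduf genes without Ndufaf. Assembly factors ran from 0.15 to 0.43. Log2 fold changes then ran from -0.24 to 0.74 for Ndufaf2, -0.29 to 0.54 for Ndufaf3, -0.072 to 0.80 for Ndufaf6, -0.37 to 0.31 for Ndufaf8 and -0.40 to 0.50 for Ndufs3. The direction of the subunits thus rests on MCS replicate 1, and the cause was not tested. All members but Ndufa4l2 and Ndufb11b had at least 560 counts in each library.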

Other observations

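Among the 4 genes of complex II, Sdha, the flavoprotein subunit, had a profile like that of Ndufs1. It was 1026 and 1021 CPM with CrAT against 718.2 and 685.3 CPM with MCS, with a log2 fold change of 0.54 (SE 0.29) and an adjusted p of 1 in edgeR. Sdhb, its iron-sulfur partner, was 217.4 and 244 CPM with CrAT against 164.8 and 297.2 CPM with MCS, the order of most complex I subunits.

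Besides the members, 7 genes named Nduf are listed with other types. Ndufs5-ps had 735 and 859 counts in CrAT and 545 and 863 in MCS, and Ndufa12-ps 181 and 207 against 134 and 220. Both were lowest in MCS replicate 1, as the genes they copy were. These counts are not scaled to library size, and whether they hold reads of the genes they copy was not tested.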
